A study of Mus musculus with 10 samples.

Results

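The 8 genes described here, Ttr, Kl, Clic6, F5, Otx2, Folr1, Aqp1 and Sostdc1, are used as markers of the choroid plexus. Their probes were found by gene symbol, taken from the RefSeq accession that the files give for each probe, and control probes were left out. All 8 genes were found, on 10 of the 41174 probes of the array, against 18539 genes named in all. Clic6 has 2 probes, A_51_P354307 (probe 1) and A_52_P447284 (probe 2), and Folr1 has 2, A_51_P329394 (probe 1) and A_52_P584335 (probe 2). The other 6 genes have 1 probe each.

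The choroid plexus is a vascular fold of tissue in the brain ventricles, covered by a single layer of epithelium that makes cerebrospinal fluid. The epithelium carries water, ions and vitamins from blood to fluid and secretes carrier proteins into it. It is a small part of a hemibrain, so a dissection can hold more or less of it.

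Each of the 10 arrays held left hemibrain RNA from a different male C57BL/6J mouse in Cy5 and another RNA in Cy3. Mice were singly housed, entered at 3 weeks of age and spent 20 weeks on diet, to an age of 5 months. The labels and the methods disagree on the diet of the Cy5 mice, a fish oil diet (FD) or a standard diet (SD), and on whether Cy3 held pooled SD hemibrains or a commercial reference RNA. No array was therefore assigned to a diet, and values are given by animal or as range and median. The median log2 ratio of Cy5 to Cy3 was 4.72 over 10 neuron genes, 6.62 over 9 astrocyte genes and -0.318 over 9 leptomeninges genes. Over all probes it was 0.0306. What the Cy3 RNA held was not tested.

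The arrays came from 4 slides. Slide 2 held C10-415, C10-416, C10-417 and C10-423, slide 3 held C10-424, C10-425, C10-434 and C10-435, and C10-413 and C10-437 were each alone on slides 1 and 4. One array stood apart over all probes. On C10-434, 49.6% of probes were well above background in Cy5, against 68.2% to 76.9% on the others, and the median background-subtracted Cy5 signal was 28.5 against 60.0 to 171. Calls of a slope on Ttr that were lost without this array are given with and without it. Precision was limited by having 10 arrays and, for dim probes, by background.

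The first question was whether the hemibrain RNA held choroid plexus transcripts. In Cy5, 8 of the 10 member probes were well above background on all 10 arrays, against 48.1% of all probes. The exceptions were F5, on 7 arrays, and Otx2, on 9. In Cy3, 3 of the 10 were well above background on all 10 arrays, against 60.0% of all probes, and these 3 were both Folr1 probes and Aqp1. The log2 ratio of Cy5 to Cy3 was above 1, a 2-fold difference, on all 10 arrays for 5 of the 10 probes, against 12.4% of all probes. It was below -1 on all 10 arrays for 1 of the 10, against 14.3%. A ratio above 1 was not particular to the members. With each gene taken by its brightest probe in Cy5, 4 of 8 members were above 1 on all 10 arrays. So were 9 of 10 neuron, 8 of 9 astrocyte, 8 of 10 endothelium and 7 of 10 ependyma genes. Fewer were among leptomeninges genes, 3 of 9, and liver and kidney genes, 0 of 10 each. The members therefore did not share 1 direction against the Cy3 RNA. The direction of a ratio also depends on the level of the gene in the Cy3 RNA, and the part of each dye was not tested. In whole tissue, fewer choroid plexus cells and less RNA per cell cannot be told apart.

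**Figure D1:**
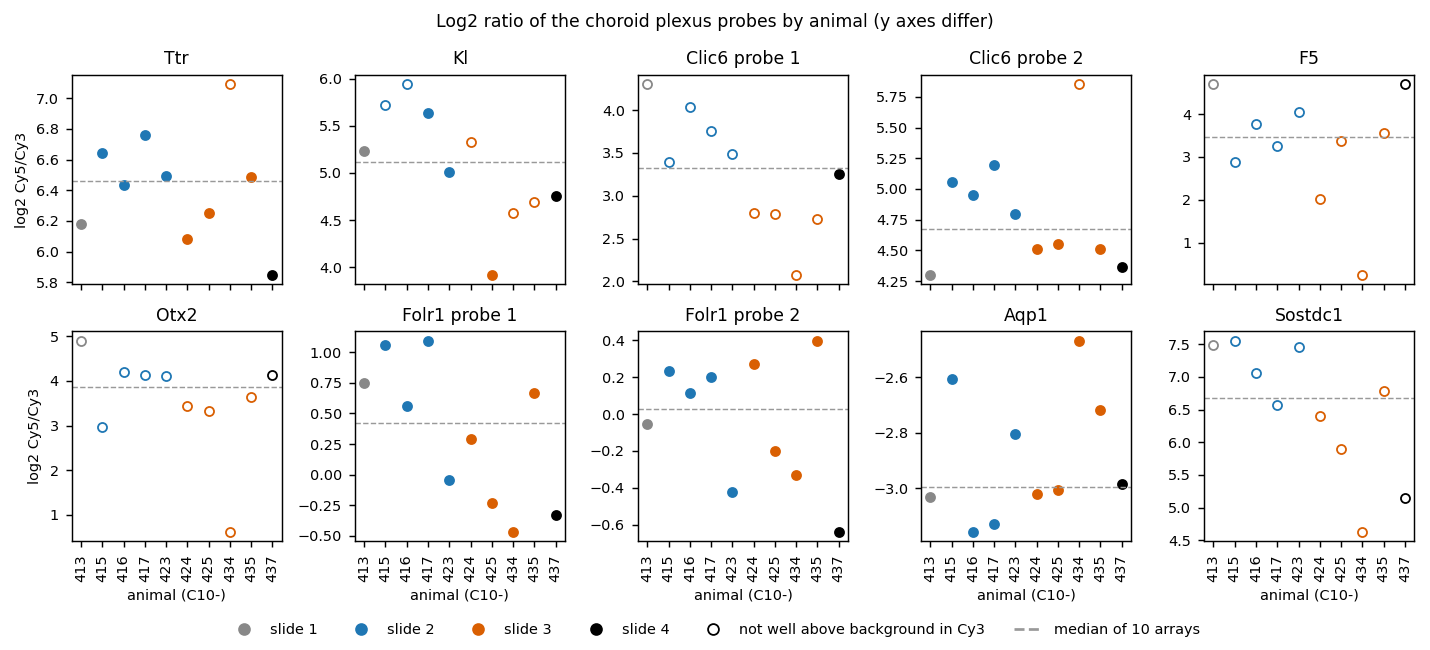
Log2 Cy5/Cy3 of the 10 member probes (y axes, different for each panel) on the arrays of the 10 animals (x axes), coloured by slide, with the median of 10 arrays as a dashed line. Open points are arrays on which the probe was not well above background in Cy3, so the ratio there rests on background; Sostdc1, F5 and Otx2 have open points alone, and the highest Ttr value, 7.09 on C10-434, is open.

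Ttr encodes transthyretin, the thyroid hormone and retinol carrier that the choroid plexus secretes into cerebrospinal fluid. Its log2 ratio was lowest at 5.85 on C10-437, had a median of 6.46 and was highest at 7.09 on C10-434. This range was 1.24, and 0.91 without C10-434. Over probes well above background in Cy5 on all arrays, as Ttr is, the median range was 0.87 and the 75th percentile 1.20, and without C10-434 the median range was 0.81. In Cy3, Ttr was well above background on 9 arrays and not on C10-434. Over those 9 arrays the ratio was highest at 6.76 on C10-417. On C10-434 Cy5 was at least 33.3-fold higher. Such a bound sets the Cy5 signal against the probe's own Cy3 signal or, where that is higher, the lowest Cy3 signal of any probe well above background on the array, and is open to dye bias, since dyes were not swapped.

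The Cy5 level gave another order of the animals. Taken as log2 signal less the 75th percentile of the array, the Ttr level was lowest at 0.87 on C10-434, had a median of 1.70 and was highest at 2.19 on C10-413. The array with the lowest Ttr level in Cy5 was thus the one whose Ttr ratio, the highest, rests on background in Cy3. Its Cy3 level of Ttr, -6.20, was also the lowest of the 10. Without C10-434 the Cy5 level lay between 1.47 and 2.19, so no hemibrain lacked the transcript.

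Sostdc1 encodes a secreted antagonist of BMP and Wnt signals. Its log2 ratio was lowest at 4.63 on C10-434, had a median of 6.68 and was highest at 7.55 on C10-415. The probe was well above background in Cy5 on all arrays and in Cy3 on 0, so these ratios are measured in 1 dye alone. As a bound, Cy5 was at least 6.59-fold higher on C10-434 and at least 53.0-fold higher on C10-417, with a median of 36.7 over 10 arrays.

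F5 encodes coagulation factor V. It was well above background in Cy5 on 7 arrays, the exceptions being C10-415, C10-417 and C10-434, and in Cy3 on 0. On these 7 arrays Cy5 was at least 2.58-fold to at least 6.92-fold higher, with a median of 3.99.

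Kl encodes Klotho, a membrane protein that acts as a co-receptor for FGF23 and is also shed. Its log2 ratio was lowest at 3.92 on C10-425, had a median of 5.12 and was highest at 5.94 on C10-416, where Cy3 was not well above background. On the 5 arrays with Cy3 well above background it lay between 3.92 and 5.64, the latter on C10-417. On the other 5 arrays Cy5 was at least 5.27-fold to at least 43.1-fold higher. The Cy5 level was lowest at -1.79 on C10-434, and the next lowest was -1.07, on C10-425.

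Folr1 encodes the folate receptor that moves folate across the epithelium. On probe 1 the log2 ratio was lowest at -0.47 on C10-434, had a median of 0.42 and was highest at 1.09 on C10-417. On probe 2 it was lowest at -0.64 on C10-437, had a median of 0.03 and was highest at 0.40 on C10-435. Neither probe passed 2-fold on all arrays in either direction. Probe 2 varied in both dyes, with a range of 2.65 in the Cy5 level and 3.24 in the Cy3 level, whereas its ratio ranged over 1.04. The probes of this gene followed each other in the ratio, with r of 0.790 (permutation p = 0.00932) and rho of 0.673 (permutation p = 0.03865), and r of 0.667 without C10-434 and C10-437, farthest from the median of probe 1. Their Cy5 levels had r of -0.245 (permutation p = 0.51114) and rho of -0.273 (permutation p = 0.44891), and r of 0.262 without C10-434 and C10-425. In the Cy3 level r was -0.0437 (permutation p = 0.90767) and rho -0.115 (permutation p = 0.76163), and r was -0.120 without C10-425 and C10-435.

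Aqp1 encodes the water channel of the apical membrane of the epithelium. It was the member with less signal in Cy5 than in Cy3 on all 10 arrays. Its log2 ratio was lowest at -3.16 on C10-416, had a median of -3.00 and was highest at -2.47 on C10-434. Its range of 0.69 was the smallest of the 10 member probes.

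Clic6 encodes a chloride intracellular channel protein. On probe 1 the log2 ratio was lowest at 2.08 on C10-434, had a median of 3.32 and was highest at 4.30 on C10-413. Cy3 was well above background on 1 array alone, C10-437, and on the other 9 Cy5 was at least 2.43-fold to at least 19.4-fold higher. On probe 2 the log2 ratio had a median of 4.68, and on the 9 arrays with Cy3 well above background it lay between 4.30 on C10-413 and 5.20 on C10-417. On C10-434 it was 5.85 with Cy3 not well above background, and Cy5 was at least 32.1-fold higher. Over 10 arrays the ratios of the probes had a Pearson r of -0.352 (permutation p = 0.32308) and a Spearman rho of -0.152 (permutation p = 0.68355). Without C10-434 and C10-413, farthest from the median of probe 1, r was 0.747, and without C10-434 alone it was 0.249. The sign of r in the ratio rests on C10-434, where Cy3 was not well above background for either probe. In the Cy5 level, measured on all 10 arrays for both probes, r was -0.136 (permutation p = 0.69844) and rho 0.0303 (permutation p = 0.94288). There r was 0.107 without C10-423 and C10-413, farthest from the median of probe 1, and -0.441 without C10-434 alone.

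Otx2 encodes the homeodomain transcription factor needed for the choroid plexus to form. Its log2 ratio was lowest at 0.62 on C10-434, had a median of 3.87 and was highest at 4.89 on C10-413. The probe is printed in 10 spots, of which 9 or 10 were kept, which gives the spread between spots of an array. The SD over the spots had a median of 0.43 on the log2 scale. The SD between arrays, which also holds differences between animals, was 1.17 over the 10 arrays and 0.58 without C10-434. The spread of spots and that of arrays are not compared, because each array value is a mean over spots. On C10-434 the probe was not well above background in either dye. On the other 9 arrays it was well above background in Cy5 alone, with Cy5 at least 2.33-fold to at least 7.19-fold higher.

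Promoters from RefSeq (GRCm38.p6), from 250 bases before to 50 after a start, matched 4 of the 8 genes, with 7 starts. The letters TAATCC, to which OTX factors are known to bind, were searched on both strands. They were found in 1 of the 7, at 1 of the 4 starts of Otx2, and in 7.06% of all 32851 promoters. That promoter (chr14:48665060-48665359, minus strand) and that of Kl (chr5:150952357-150952656, plus strand), the member with the highest r with Ttr in the Cy5 level over 10 arrays, are shown 5′ to 3′ in the direction of the gene. Capitals mark the match, here on the other strand and 211 bases before the start, and Kl has none.
Otx2: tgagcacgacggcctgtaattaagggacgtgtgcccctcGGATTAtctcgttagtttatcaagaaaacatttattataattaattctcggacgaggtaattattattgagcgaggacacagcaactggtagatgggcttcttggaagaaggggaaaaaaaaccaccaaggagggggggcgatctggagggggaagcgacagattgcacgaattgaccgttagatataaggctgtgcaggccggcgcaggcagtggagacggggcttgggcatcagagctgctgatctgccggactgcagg
Kl: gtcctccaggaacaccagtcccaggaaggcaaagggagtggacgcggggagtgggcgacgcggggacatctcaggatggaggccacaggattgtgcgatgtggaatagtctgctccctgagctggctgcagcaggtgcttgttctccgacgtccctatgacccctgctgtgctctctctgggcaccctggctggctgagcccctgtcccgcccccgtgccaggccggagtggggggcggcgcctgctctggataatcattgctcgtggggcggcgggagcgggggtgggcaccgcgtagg
A match describes the letters alone, and no binding was measured.

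**Figure D2:**
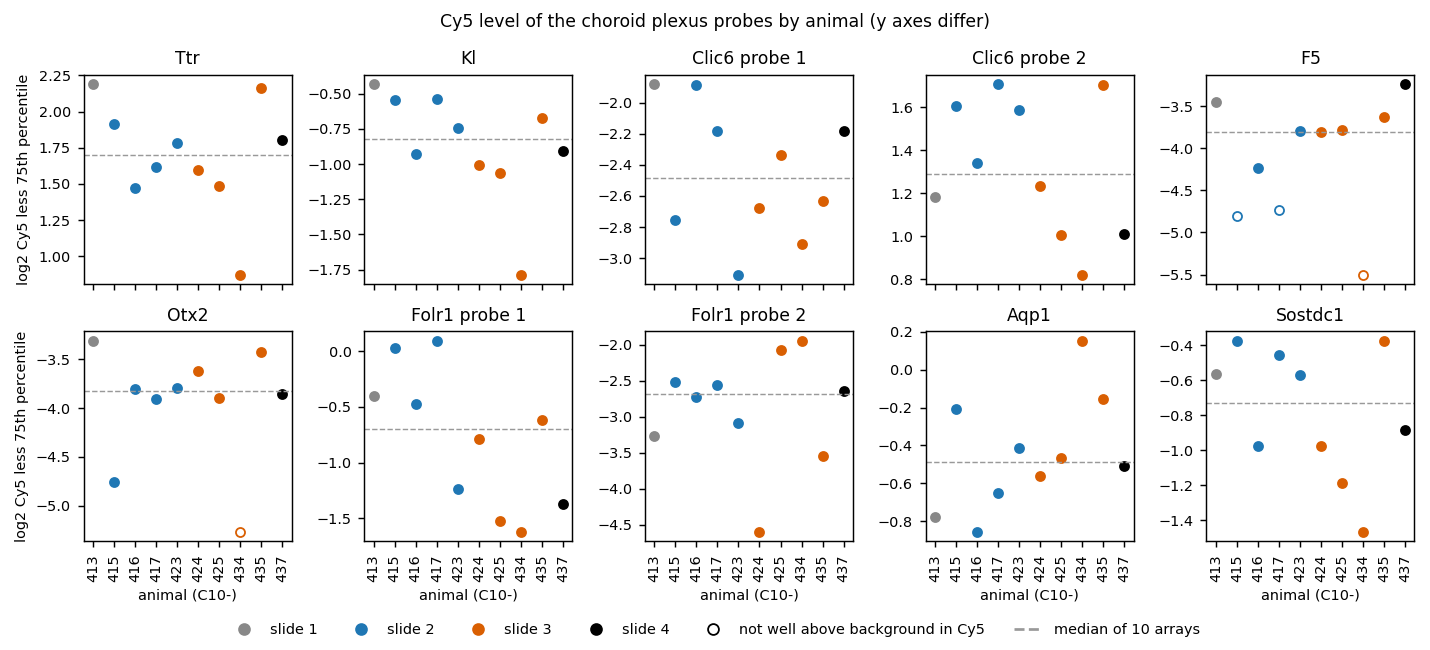
Cy5 level of the 10 member probes (log2 signal less the 75th percentile of the array, y axes differ) by animal, coloured by slide, with the median dashed. Open points were not well above background in Cy5; Ttr, Kl, Sostdc1, F5, Otx2, Folr1 probe 1 and Clic6 probe 2 are lowest on C10-434.

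The slides were compared because a slide is the technical batch the file headers give. Animals of unknown diet lie on each, so slide and animal cannot be told apart. By limma on the log2 ratio, with Benjamini-Hochberg adjustment over 40299 probes, 0 of the 10 member probes differed between slides 2 and 3, against 0.0744% of all probes (30 probes). At an unadjusted p under 0.05, 3 of the 10 did, against 10.0% of all probes. These were Clic6 probe 1, Kl and Sostdc1. For Kl and Sostdc1 the difference, slide 3 less slide 2, was -0.95 (SE 0.31) and -1.23 (SE 0.44). Cy3 was not well above background for Sostdc1 on any of these 8 arrays, and for Kl on 5 of them. In the Cy5 level the differences were -0.45 (SE 0.25, limma unadjusted p = 0.110) and -0.41 (SE 0.26, limma unadjusted p = 0.156). Clic6 probe 1 lay between 3.39 and 4.04 on slide 2 and between 2.08 and 2.80 on slide 3. It was the member probe whose slides did not overlap, 1 of 10 against 5.65% of all probes. Its difference, slide 3 less slide 2, was -1.07 (SE 0.23, limma adjusted p = 0.123), with Cy3 not well above background on any of these 8 arrays. In the Cy5 level the difference was -0.16 (SE 0.28, adjusted p = 0.896), and the slides overlapped. Clic6 probe 2 lay between 4.80 and 5.20 on slide 2 and between 4.51 and 5.85 on slide 3, an overlap that comes from C10-434. Without that array slide 3 lay between 4.51 and 4.55, and the difference was -0.47 (SE 0.16, adjusted p = 0.328), against -0.14 (SE 0.31, adjusted p = 0.981) with it. Both Clic6 probes were then lower on slide 3 with no overlap, 2 of 10 member probes against 10.4% of all probes. In the Cy5 level without that array, chosen after seeing the data, the slides overlapped for both probes. The difference there was -0.068 (SE 0.30, limma adjusted p = 0.977) for probe 1 and -0.25 (SE 0.22, adjusted p = 0.737) for probe 2.

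The next question was whether the members rose and fell together over the hemibrains, with Ttr as the measure. On the log2 ratio, limma called 0 of 40059 probes with a slope on Ttr in either direction, so 0 of 9 member probes and 0% of all probes had a positive slope at an adjusted p under 0.05. At an unadjusted p under 0.05, 6760 probes passed. A positive slope at that level was seen for 1 of 9 member probes, against 8.68% of all probes, and a negative slope for 2 of 9, against 8.20%. The members with a negative slope were F5 and Otx2, both not well above background in Cy3 on any array. With normexp background correction both slopes were positive and called (0.18 and 0.23, limma adjusted p = 0.00198 and 0.000326). It called a positive slope for 6 of 9 member probes, against 21.6% of all probes. Its fitted background in Cy5 and Cy3 was -2836 and -526.4 on C10-413, -252.7 and -462.6 on C10-415, and -163.5 and -173.1 on C10-425. On the other arrays it lay between -35.97 and 4.09.

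Correlations were computed for 11 pairs of probes on 3 scales, 33 relations in all. Clic6 probe 2 followed the Ttr ratio, with r of 0.911 (permutation p = 0.00015) and rho of 0.903 (permutation p = 0.00078) over 10 arrays. Without C10-434 and C10-437, farthest from the median of Ttr, r was 0.852, and without C10-434 alone it was 0.846. The limma slope was 1.21 (SE 0.22, adjusted p = 0.0947). Among the 19257 probes well above background in Cy5 on all arrays, it was called for this probe (adjusted p = 0.0303), 1 of 7 member probes against 1.72%. Without C10-434, chosen after seeing the data, it was 0.94 (SE 0.25, adjusted p = 0.142), with 0 of 7 member probes and 0% called. The same pair had r of 0.893 (permutation p = 0.00337) and rho of 0.855 (permutation p = 0.00299) in the Cy3 level, the dye that held the other RNA. There r was 0.585 without C10-434 and C10-413. In the Cy5 level r was 0.555 (permutation p = 0.09082) and rho 0.418 (permutation p = 0.23206), and r was 0.514 without C10-434 and C10-413. In the Cy3 level limma called a positive slope on Ttr for 1 of 9 member probes, Clic6 probe 2 (slope 0.82, SE 0.14, adjusted p = 0.0341), against 0.652% of all probes. At an unadjusted p under 0.05, 1 of 9 had a positive slope there, against 4.26%, and 1 of 9, Otx2, a negative slope, against 14.3%. The Clic6 call was lost without C10-434, where neither Ttr nor Clic6 probe 2 was well above background in Cy3. No other array was left out in the Cy3 level. Without that array, chosen after seeing the data, the slope in the Cy3 level was 0.40 (SE 0.17, adjusted p = 0.823), and limma called 0 of 9 member probes, against 0.00249% of all probes (1 probe). At an unadjusted p under 0.05, 1 of 9 then had a positive slope, against 4.15%, and 0 of 9 a negative slope, against 1.92%. For this pair r was then 0.640 in the Cy3 level and 0.258 in the Cy5 level, and the difference between dyes was not tested.

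Over 10 arrays, Kl and Sostdc1 were the members with the highest r with Ttr in the Cy5 level. For Kl, r was 0.884 (permutation p = 0.002) and rho 0.818 (permutation p = 0.00563). For Sostdc1, r was 0.841 (permutation p = 0.00164) and rho 0.842 (permutation p = 0.00364). Without C10-434 and C10-413, r was 0.573 for Kl and 0.752 for Sostdc1, and Aqp1 was then the highest, at 0.849. Their ratios rest on Cy3 not well above background, on 5 arrays for Kl and on all 10 for Sostdc1, so r in the ratio is not set against r in the Cy5 level. In the ratio r was 0.117 (permutation p = 0.74947) and rho 0.0545 (permutation p = 0.89239) for Kl, and r was -0.0727 (permutation p = 0.83893) and rho 0.103 (permutation p = 0.786) for Sostdc1. Without C10-434 and C10-437, r in the ratio was 0.372 for Kl and 0.272 for Sostdc1. Without C10-434 alone, r in the ratio was 0.423 for Kl and 0.618 for Sostdc1.

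**Figure D3:**
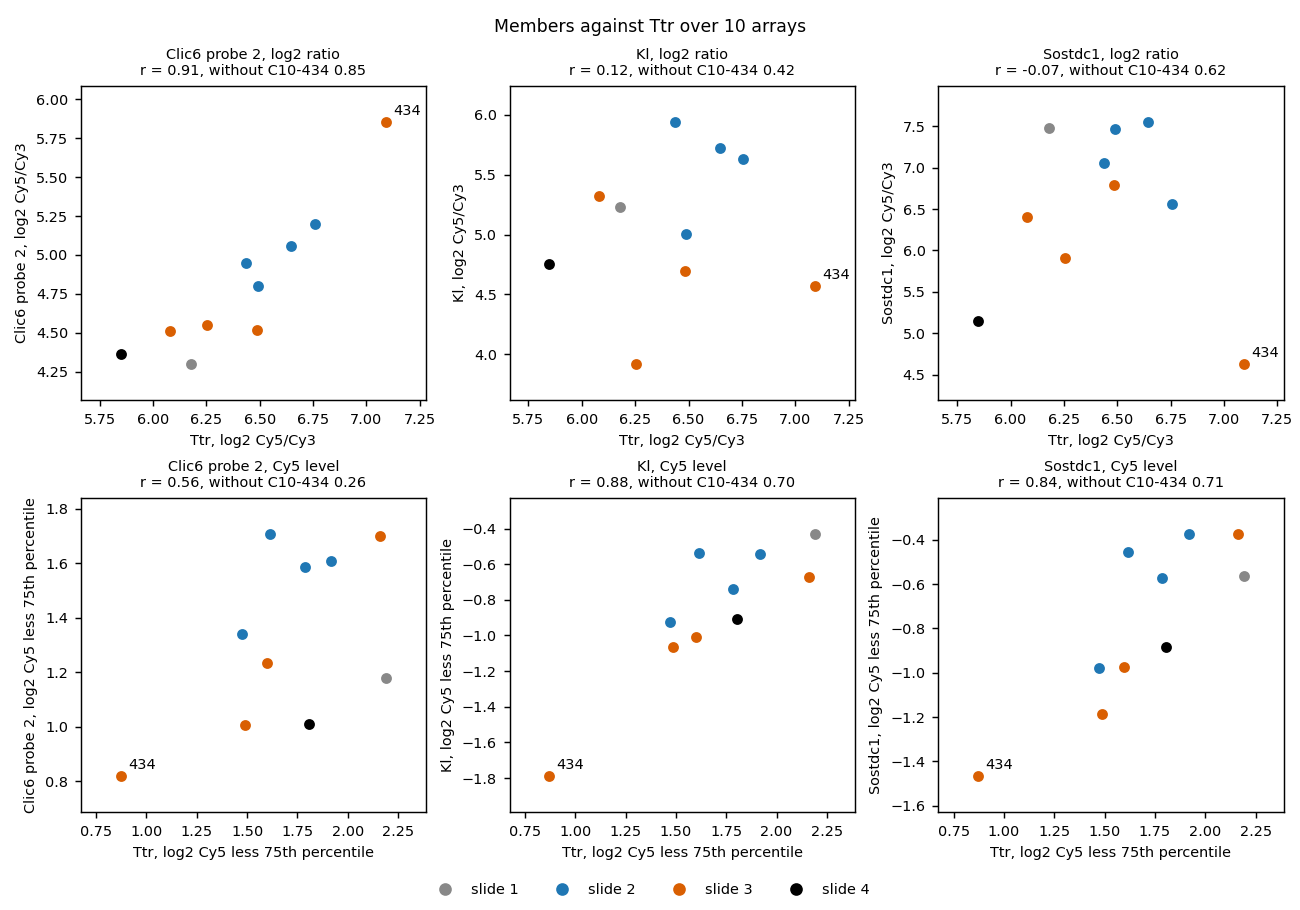
Clic6 probe 2, Kl and Sostdc1 (y axes) against Ttr (x axes) on the 10 arrays, as log2 Cy5/Cy3 (upper row) and as Cy5 level, log2 less the 75th percentile of the array (lower row), coloured by slide. C10-434 lies farthest right in the upper row and farthest left in the lower row.

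In the Cy5 level, limma called a positive slope on Ttr for 1 of 9 member probes, Kl (slope 0.90, SE 0.23, adjusted p = 0.0438), against 0.320% of all probes. For Sostdc1 the slope was 0.82 (SE 0.23, adjusted p = 0.0563). At an unadjusted p under 0.05, 4 of 9 member probes (Kl, Sostdc1, F5 and Otx2) had a positive slope, against 2.99% of all probes, and 0 of 9 a negative slope, against 16.6%. The Kl call was lost without C10-434, and no other array was left out in the Cy5 level. Without that array, chosen after seeing the data, limma called 0 of 9 member probes and 0% of all probes. At an unadjusted p under 0.05, 0 of 9 then had a positive slope, against 0.847% of all probes, and 0 of 9 a negative slope, against 1.68%. The Kl slope was then 0.60 (SE 0.33, adjusted p = 1.00) and the Sostdc1 slope 0.80 (SE 0.37, adjusted p = 1.00), and r was 0.705 and 0.708.

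Clic6 probe 1, both Folr1 probes and Aqp1 had no permutation p under 0.05 with Ttr in the ratio or the Cy5 level. Clic6 probe 1, the other probe of that gene, had r of -0.281 (permutation p = 0.43341) and rho of -0.139 (permutation p = 0.7075) in the ratio, and r of 0.225 (permutation p = 0.54793) and rho of 0.188 (permutation p = 0.60668) in the Cy5 level. For Folr1 probe 1, r was 0.145 (permutation p = 0.68997) and rho 0.212 (permutation p = 0.56103) in the ratio, and r was 0.488 (permutation p = 0.15063) and rho 0.479 (permutation p = 0.16655) in the Cy5 level. For Folr1 probe 2, r was 0.198 (permutation p = 0.58108) and rho 0.103 (permutation p = 0.78405) in the ratio, and r was -0.465 (permutation p = 0.17664) and rho -0.467 (permutation p = 0.17557) in the Cy5 level. For Aqp1, r was 0.578 (permutation p = 0.08092) and rho 0.394 (permutation p = 0.26611) in the ratio, and r was -0.333 (permutation p = 0.34876) and rho 0.0061 (permutation p = 1) in the Cy5 level. Without the 2 arrays farthest in Ttr, r in the ratio was 0.185 for Clic6 probe 1, 0.555 and 0.166 for the Folr1 probes and 0.286 for Aqp1. The values were -0.504, 0.156, -0.198 and 0.849 in the Cy5 level, where the sign turned for Clic6 probe 1 and Aqp1. In the Cy3 level Clic6 probe 1 had r of -0.300 (permutation p = 0.41693) and rho of -0.285 (permutation p = 0.42653), and r of 0.446 without those arrays. Without C10-434 alone, r in the ratio was 0.201 for Clic6 probe 1, 0.703 and 0.537 for the Folr1 probes and 0.272 for Aqp1. In the Cy5 level these were -0.0935, 0.233, -0.238 and 0.384.

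For F5 and Otx2 the sign of r differed between the scales, with ratios that rest on Cy3 not well above background on all 10 arrays. For F5, r was -0.651 (permutation p = 0.04344) and rho -0.515 (permutation p = 0.13337) in the ratio, and r was 0.673 (permutation p = 0.03255) and rho 0.564 (permutation p = 0.09627) in the Cy5 level. For Otx2, r was -0.644 (permutation p = 0.04936) and rho -0.370 (permutation p = 0.29538) in the ratio, and r was 0.683 (permutation p = 0.03529) and rho 0.527 (permutation p = 0.12166) in the Cy5 level. Without the 2 arrays farthest in Ttr, r was 0.0508 for F5 and -0.112 for Otx2 in the ratio, and 0.160 and -0.0169 in the Cy5 level. These relations rest on those arrays. Without C10-434 alone, r was -0.286 for F5 and -0.192 for Otx2 in the ratio, and 0.318 and 0.254 in the Cy5 level. Each slide held at most 4 arrays, and no correlation is given within one. With slide as a block, on the 8 arrays of slides 2 and 3, the limma slope in the ratio was -2.38 (SE 0.90, adjusted p = 0.274) for F5 and -2.73 (SE 0.69, adjusted p = 0.122) for Otx2. It was 1.35 (SE 0.31, adjusted p = 0.107) for Clic6 probe 2, -0.21 (SE 0.57, adjusted p = 0.907) for Kl and -1.64 (SE 0.58, adjusted p = 0.238) for Sostdc1.

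**Figure D4:**
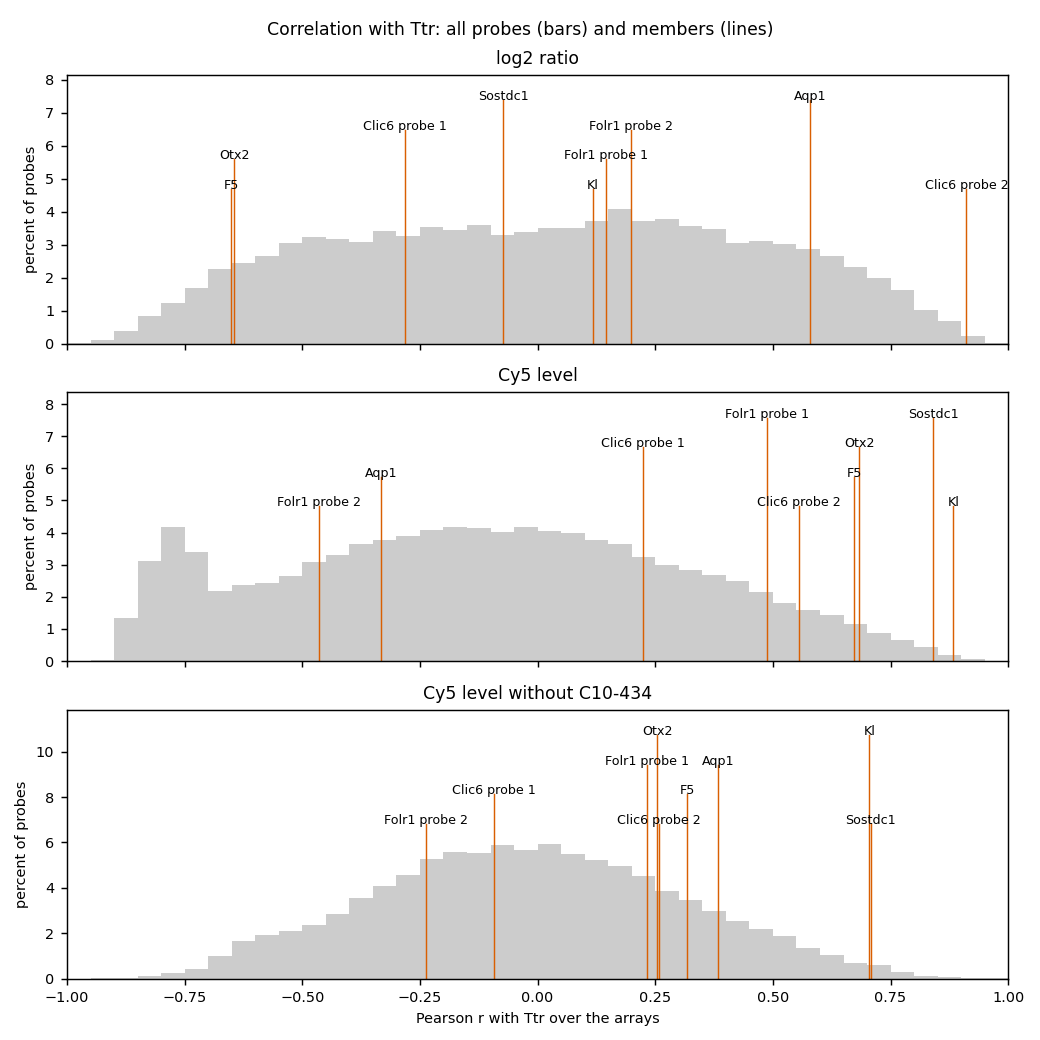
Pearson r with Ttr over the arrays (x axis) for all other probes (bars, percent of probes, y axis) and for the member probes (lines), in the log2 ratio, the Cy5 level and the Cy5 level without C10-434. Members ran from -0.651 to 0.911 in the ratio, and Kl and Sostdc1 lie at 0.705 and 0.708 in the last panel.

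Among 11680 genes well above background in Cy5 on all 10 arrays, the 10 whose ratio was most like that of Ttr over 10 arrays were Myh14, Cpne9, Crtac1, Cbln1, Il17d, St8sia3, Serpind1, Fam181b, Wscd2 and Phf13. None of these is a member. They were chosen by this r, which is given as a description with no test. Myh14, a nonmuscle myosin heavy chain, had the highest r, 0.966, and r of 0.903 without C10-434 and C10-437. For Phf13, the last of the 10, these were 0.941 and 0.854. Without C10-434 alone, r was 0.939 for Myh14 and 0.912 for Phf13. In the Cy5 level 6 of the 10 had a negative r with Ttr, among them Myh14 (-0.334) and Phf13 (-0.340). Of the members, Clic6 probe 2 ranked 43, Aqp1 2233, Folr1 probe 1 5570, Kl 5761 and Sostdc1 7199. These ranks are by r over 10 arrays, and none is given without C10-434. Without that array, r in the ratio was 0.846 for Clic6 probe 2, 0.272 for Aqp1 and 0.703 for Folr1 probe 1. For Kl and Sostdc1 it was 0.423 and 0.618.

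Other choroid plexus genes were described by list. Of 9 genes of transport with a value on every array, 7 were well above background in Cy5 on all 10 arrays, as were 9 of 9 secreted genes and 7 of 10 other epithelial genes. Each gene was taken by its brightest probe in Cy5, and by that choice 64.4% of all 18090 genes were well above background on all 10 arrays. Lmx1a, a transcription factor of the developing roof plate, was well above background on 0 arrays. Kcne2, a potassium channel subunit, was the 1 gene of 28 in these lists with a called positive slope on Ttr in the Cy5 level (slope 1.16, SE 0.25, limma adjusted p = 0.0393), against 0.320% of all probes and 0.365% of all genes by brightest probe. Without C10-434 its slope was 0.76 (SE 0.35) and was not called. The median r with Ttr in the Cy5 level was 0.361 for transport, 0.332 for secreted and 0.255 for other epithelial genes, against -0.122 for all probes. Without C10-434 these were 0.346, 0.427 and 0.108, against -0.0246. In the ratio the medians were 0.155, 0.0861 and 0.0548, against 0.0283, and without C10-434 they were 0.416, 0.305 and 0.249, against 0.0256. The reference for r is over all probes, dim ones included, and not over the brightest probe of each gene, so the sets are unlike.

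Lists of other cell types gave the frame for these values. In the ratio, the median r with Ttr was 0.775 over 9 astrocyte genes and 0.613 over 10 neuron genes, against 0.117 over the members other than Ttr. Without C10-434 these were 0.576, 0.289 and 0.423. In the Cy5 level it was 0.0867 and -0.0724, against 0.673 over those members, which was 0.318 without C10-434. These differences between lists were not tested. Over ependyma it was 0.336 in the Cy5 level, over leptomeninges 0.363, over endothelium 0.257 and over erythroid genes -0.395. Without C10-434 these were 0.479, 0.186, 0.326 and -0.164, so that ependyma and endothelium then lay above the members, and astrocyte and neuron genes were at 0.144 and -0.155.

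The summed Cy5 level of the members, in units of the 75th percentile of the array, was lowest at 5.73 on C10-434, had a median of 8.44 and was highest at 10.8 on C10-435, with Ttr the brightest. Without C10-434 the lowest was 6.94, on C10-425. The other choroid plexus lists were not at their lowest on C10-434. There the transport sum was 3.75 against a median of 3.84, the secreted sum 27.1 against 31.9 and the sum of other epithelial genes 15.4 against 14.5. The transport sum, 5.33, and the secreted sum, 40.1, were highest on C10-435, as were those of ependyma and endothelium. The ependyma sum was 12.3 there, with a median of 8.65 and Rarres2 the brightest, and 9 of 10 of its genes were well above background on all 10 arrays. The endothelium sum was 26.1 there, with a median of 22.5 and Cldn5 the brightest. The neuron sum was highest on C10-434, at 217 against a median of 182, and at most 191 without that array, with Camk2a the brightest. The astrocyte sum was 177 there against a median of 165, with Slc1a2 the brightest. The leptomeninges sum was lowest at 10.2 on C10-434, 10.2 also without it, and highest at 11.8 on C10-417, with Dcn the brightest. The erythroid sum ran from 13.0 on C10-434, or 15.0 on C10-424 without that array, to 47.9 on C10-423, with Hba-a1 the brightest, and Epb42 was well above background on 0 arrays. Their part in the members' values was not tested.

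Some members are also known from liver, kidney, pineal gland or retina. Of 10 liver genes, Serpina1d, Hpx and Tat were well above background in Cy5 on all 10 arrays, Apoh on 9 and Apoa2 on 7, and Alb, Apoa1 and Fgb on 0. Of 10 kidney genes, Aqp2 and Slc22a12 were on all 10 arrays, Lrp2 on 9, Cdh16 on 8 and Slc12a3 on 0. Of 7 genes of pineal gland and retina, 0 were on all 10 arrays, Tph1, Sag and Nrl were on 9, and Crx was on 0. The summed levels reached at most 1.29, 2.97 and 0.47, each on C10-434, and at most 1.14, 2.94 and 0.44 without it, with Tat, Slc22a12 and Sag the brightest.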

How the data were processed

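The authors deposited scanner intensities of each dye on a linear scale, a log10 ratio per spot after background subtraction and dye normalization, and a table of the log2 ratio per probe (100% of probes within 0.001 of the processed ratio). From the processed signals, log2 Cy5/Cy3 was computed without further loess, control and outlier-flagged spots were left out and spots of a probe were averaged. A probe was well above background on an array if a share of 0.5 or more of the spots kept had the flag. Of 41174 probes, 66.1% were named through RefSeq accessions (GRCm38.p6). Tests used limma 3.58.1 in R 4.3.3, checked on simulated data, and two-sided permutation tests with 100000 resamples in Python 3.11.15 (numpy 2.4.6, pandas 2.3.3, scipy 1.17.1). For list genes the brightest probe in Cy5 with values on all arrays was used. Genes named are the members, list genes and the 10 most like Ttr. Members and lists were chosen with earlier results of these data known. Alternatives were loess (span 0.3), normexp (offset 50, on median signals), median centring, the deposited table, dim probes left out, each dye alone, slide as a block, other anchor genes and arrays left out. Those without C10-434 in the Cy5 or Cy3 level, after loess or with dim probes left out were chosen after seeing the data. Single values of some listed genes are not reported here.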

Additional observations from a re-analysis of the deposited data

Results flagged for a closer look

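Each member probe was examined for an array far from the other 9, in the log2 ratio and in the Cy5 level, 20 sets of values in all. Chance flags about 1 in 20 such sets, and 2 stood out, both on C10-434. The Otx2 log2 ratio was 0.62 there, against 2.97 on the nearest array, a gap of 0.549 of the whole range. The probe was not well above background in either dye on C10-434, nor in Cy3 on any array, so these ratios rest on background. Its Cy5 level, -5.27 on C10-434 against -4.75 on the next lowest array, did not stand out. The Kl Cy5 level was -1.79 there, against -1.07 on the nearest array, a gap of 0.531 of the range. C10-434 was also the dimmest array in Cy5, with 49.6% of probes well above background, and the part of this in both values was not tested.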

How the results depend on the processing

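The count of member probes past 2-fold higher in Cy5 on all arrays was 5 with loess, median centring and the deposited table, and 0 with normexp. The fitted background of normexp was lowest at -2836, in Cy5 on C10-413. It was -163.5 or lower in both dyes on C10-413, C10-415 and C10-425. With the positive and significant flag, 9 member probes in place of 8 were detected on all arrays. No median log2 ratio of a member changed sign, and 8 of 10 moved by more than their SD over the arrays with normexp.

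Between slides, limma called 30 probes, with 0 members under every setting run. The count was 30 with loess, 29 with median centring, 31 with the deposited table, 68 among probes well above background, 2704 in the Cy5 level, 3017 in the Cy5 level without C10-434 and 0 with normexp. Leave-one-out counts ranged from 0 to 18, with 18 without C10-423, 2 without C10-415 and 0 without each of the other 6. The sign of the difference turned in the Cy5 level for F5 (0.21), Otx2 (0.0094) and Folr1 probe 2 (-0.31), in the Cy5 level without C10-434 for Ttr (0.051), F5 (0.65), Otx2 (0.41) and Folr1 probe 2 (-0.68), with loess for Folr1 probe 2 (-0.071), with median centring for Folr1 probe 2 (-0.028) and with normexp for Otx2 (0.0080), Folr1 probe 2 (-0.10) and Aqp1 (-0.035). Leave-one-out differences ranged from -0.31 to 0.028 for Ttr and from -0.15 to 0.13 for Folr1 probe 2. None of these passed the threshold.

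For slopes on Ttr, limma called 0 probes with a positive slope in the ratio, and also with loess, median centring, the deposited table, slide as a block, and Clic6 or Kl as the anchor. It called 332 probes and 1 member (Clic6 probe 2) among probes well above background, where fewer probes were tested, 0 and 0 among these without C10-434, 128 and 1 (Kl) in the Cy5 level, 261 and 1 (Clic6 probe 2) in the Cy3 level, 1 and 0 in the Cy3 level without C10-434, and 8657 (21.6% of probes) and 6 with normexp (both Clic6 probes, Kl, F5, Otx2 and Sostdc1). Leave-one-out counts ranged from 0 to 1, the 1 being without C10-434, with 0 members. The slope turned sign in the Cy5 level for Clic6 probe 1 (0.25), F5 (1.25), Otx2 (1.07), Folr1 probe 2 (-0.94), Aqp1 (-0.26) and Sostdc1 (0.82), in the Cy5 level without C10-434 for F5 (0.64), Otx2 (0.39), Folr1 probe 2 (-0.66) and Sostdc1 (0.80), in the Cy3 level for Folr1 probe 2 (-0.67) and Aqp1 (-0.074), and in the Cy3 level without C10-434 for Clic6 probe 1 (0.23), F5 (0.10), Otx2 (0.034), Folr1 probe 1 (-0.048), Folr1 probe 2 (-0.37), Aqp1 (-0.0076) and Sostdc1 (0.45). It did so with normexp for Clic6 probe 1 (0.31), F5 (0.18), Otx2 (0.23), Aqp1 (-0.37) and Sostdc1 (0.73), where each of these passed the threshold, with loess for Sostdc1 (0.13), with loess without C10-434 for Clic6 probe 1 (0.44) and Sostdc1 (1.60) and among probes well above background without C10-434 for Clic6 probe 1 (0.40) and Sostdc1 (1.73). With slide as a block, on 8 arrays, it turned for Kl (-0.21), Folr1 probe 1 (-0.25) and Folr1 probe 2 (-0.29). Without C10-434 and C10-437, which are also the arrays farthest in Ttr, it turned for Clic6 probe 1 (0.48), F5 (0.18) and Sostdc1 (0.70). Leave-one-out slopes ranged from -0.79 to 0.40 for Clic6 probe 1, from -0.20 to 1.30 for Folr1 probe 1, from -0.21 to 0.65 for Folr1 probe 2 and from -1.41 to 1.73 for Sostdc1. The cause was not tested. No paired analysis was possible because the arrays are in no known groups.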
